A study of Mus musculus with 2 samples.

Results

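The genes described here are those of the mitochondrial respiratory chain and ATP synthase, chosen by symbol. They are the symbols starting mt-Nd, mt-Co, mt-Cyt or mt-Atp, or starting Ndufa, Ndufb, Ndufc, Ndufs or Ndufv (without Ndufaf), Sdha to Sdhd, Uqcr, Cox4i, Cox5, Cox6, Cox7, Cox8 or Atp5. The rule found 98 of the 27998 genes counted. Of these members, 85 are coded in the nucleus (38 under complex I, 4 under II, 8 under III, 18 under IV and 17 under V) and 13 in the mitochondrial genome (7, 0, 1, 3 and 2). The 13 are also all the mt- genes in the files. Assignment follows the symbol, so that Ndufa4, known as a subunit of complex IV, is counted under complex I, and the assembly factor Cox7a2l and the ATP synthase relatives Atp5s and Atp5sl are included. Cyc1, the cytochrome c1 of complex III, is not matched by the rule and is counted in a separate list of cytochrome c and quinone carriers.

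The respiratory chain sits in the inner mitochondrial membrane. Complexes I and II take electrons from NADH and succinate, complex III passes them to cytochrome c, complex IV gives them to oxygen, and complex V makes ATP from the proton gradient that I, III and IV build. Most subunits are nuclear genes, translated outside and imported, while a core of I, III, IV and V is coded by mitochondrial DNA, so each complex needs transcripts from both genomes. The cochlea is known for its demand on this system, since fibrocytes of the lateral wall take up and pass on potassium, the stria vascularis pumps it into the endolymph, and hair cells must clear calcium and restore their membrane potential continuously.

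Cochlea of wild-type C57BL/6 mice was measured by droplet single-cell RNA sequencing at postnatal day 20 (P20), in 1 group of 2 libraries with no treatment or other genotype. The labels give 5 to 8 purchased mice, dissociation of the cochleae with trypsin and sequencing on an Illumina HiSeq. Nothing states that the libraries came from separate animals, so p-values measure only the spread between these libraries, which may be technical. The stated purpose was to examine gene expression patterns of the cochlea at this age.

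The libraries held 1610 and 720 barcodes with 20212520 and 7094752 UMIs (unique molecular identifiers, which count captured transcripts). With at least 300 genes and at most 20% mt- UMIs, and without doublets, 1329 and 640 cells remained, with medians of 10601 and 6115.5 UMIs, and 2 barcode sequences occurred in both libraries. The maximum of 20% acts on the mitochondrial members themselves and caps their share. Cells were grouped without any member, and a group is called X-like only where fixed markers name it, while the rest keep a cluster number. Connective tissue fibroblast-like cells numbered 149 and 166, erythroid cell-like 414 and 39, hair cell-like 48 and 4, macrophage-like 19 and 16, non-sensory cochlear epithelium-like 51 and 50, and organ of Corti supporting cell-like 82 and 7, in libraries 1 and 2. Cluster 9, with 53 and 24 cells, was led by Hhatl, Kcnk2, Slc5a3, Gjb2 and S100b. It carried 3 of 7 cochlear fibrocyte markers (Otos, Car3 and Kcnk2) and also 3 of 7 Schwann cell or glia markers (Mbp and S100b among them), so it has no cell type name here. Fibrocyte markers were not particular to cluster 9. Cluster 2 (Otor, Tbx18 and Slc4a11) and cluster 8 (Otor, Coch and Slc4a11) also carried 3 of 7. Cluster 17 carried 2 of 7 (Otor and Slc4a11). Free RNA was not removed, and its part in low values was not tested.

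Promoter sequence was looked at for the nuclear members as a description, and was not tested against their expression. Among the 85, 70 had a RefSeq promoter (GRCm38.p6, 250 bases before to 50 after the start). Each window was searched on both strands for the NRF1 motif, CCGGAAG (ETS factors) and AAGATGGC (YY1). CCGGAAG and AAGATGGC can overlap by the letters AAG, and each was counted separately. The NRF1 motif stood in 17 of the 70 (24.3%) against 5.19% of the 27025 genes with such a window. The ETS letters stood in 16 (22.9%) against 9.93%, and the YY1 letters in 11 (15.7%) against 3.19%. At least 1 of the 3 stood in 38 (54.3%) against 16.4% of all genes. The 27025 genes were not chosen for expression, so the shares were not compared with those of other broadly expressed genes. The 250 bases before the start follow for 3 broadly expressed subunits that hold motif letters and for 3 isoform genes whose levels follow cell type, with motif letters in capitals. These 6 were picked for display after the matches were known and stand for no contrast between the sets: the general subunits Cox7a2, Cox5a, Ndufa4 and Uqcr10 hold none of the 3 motifs either, and the isoform genes Cox4i2 and Ndufa4l2 have no entry. Sdha is the flavoprotein of complex II (chr13:74350241-74350490, minus strand), Cox6a1 (chr5:115348959-115349208, minus) and Cox6b1 (chr7:30626115-30626364, minus) are general subunits of complex IV. Cox6b2 (chr7:4753095-4753344, minus), Cox7a1 (chr7:30183921-30184170, plus) and Cox8b (chr7:140900447-140900696, minus) are isoforms best known from testis (Cox6b2) and from heart, skeletal muscle and brown fat (Cox7a1 and Cox8b).
Sdha: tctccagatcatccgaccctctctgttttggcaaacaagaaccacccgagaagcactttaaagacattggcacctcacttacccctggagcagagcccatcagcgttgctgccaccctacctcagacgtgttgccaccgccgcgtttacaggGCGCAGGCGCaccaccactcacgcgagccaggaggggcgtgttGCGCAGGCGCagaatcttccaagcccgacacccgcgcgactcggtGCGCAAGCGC
Cox6a1: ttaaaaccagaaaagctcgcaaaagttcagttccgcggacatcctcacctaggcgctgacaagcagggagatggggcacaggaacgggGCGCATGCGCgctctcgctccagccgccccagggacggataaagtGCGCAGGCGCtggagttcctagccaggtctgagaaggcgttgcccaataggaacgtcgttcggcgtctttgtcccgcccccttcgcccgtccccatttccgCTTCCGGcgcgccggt
Cox6b1: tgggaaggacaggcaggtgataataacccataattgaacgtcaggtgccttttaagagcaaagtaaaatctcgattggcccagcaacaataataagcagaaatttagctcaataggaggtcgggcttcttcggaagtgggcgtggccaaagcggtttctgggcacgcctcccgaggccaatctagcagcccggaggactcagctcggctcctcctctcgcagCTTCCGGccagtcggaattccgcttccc
Cox6b2: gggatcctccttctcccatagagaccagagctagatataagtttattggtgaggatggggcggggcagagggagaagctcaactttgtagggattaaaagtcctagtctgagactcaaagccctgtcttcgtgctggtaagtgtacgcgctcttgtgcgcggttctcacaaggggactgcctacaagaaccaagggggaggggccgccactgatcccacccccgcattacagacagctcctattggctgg
Cox7a1: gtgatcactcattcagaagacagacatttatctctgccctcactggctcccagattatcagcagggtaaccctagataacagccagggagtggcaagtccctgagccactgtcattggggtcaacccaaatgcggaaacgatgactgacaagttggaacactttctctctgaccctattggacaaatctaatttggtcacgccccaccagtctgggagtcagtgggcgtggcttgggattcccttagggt
Cox8b: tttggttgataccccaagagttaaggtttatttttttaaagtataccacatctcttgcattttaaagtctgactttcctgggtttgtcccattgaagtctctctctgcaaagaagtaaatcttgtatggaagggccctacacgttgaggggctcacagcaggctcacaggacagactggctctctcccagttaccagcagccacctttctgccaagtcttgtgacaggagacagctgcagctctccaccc
The windows of Sdha and Cox6a1 hold several matches and that of Cox6b1 holds 1, while those of the 3 isoform genes hold none of these letters. A match is a description of the letters, and its absence says nothing of the factor.

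Over all cells the nuclear members took 2.27% of UMIs in library 1 and 2.37% in library 2, and the mitochondrial members 3.24% and 3.69%. The ratio of nuclear to mitochondrial member UMIs was therefore 0.701 and 0.641. It is a ratio of transcript numbers over unlike numbers of genes, not of levels per length, and serves to compare classes. Among the mitochondrial members mt-Atp6 took 22.4% and 21.7% of their UMIs, mt-Co3 19.3% and 18.3%, and mt-Co1 17.5% and 16.3%, while mt-Nd6, the gene of the light strand, took 0.0212% and 0.0352%.

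Cluster 9 and hair cell-like cells had the highest mitochondrial shares of the 12 classes with 3 or more cells per library, and only cluster 9 matched them with a high nuclear share. In cluster 9 the nuclear members took 5.90% of UMIs in library 1 and 6.69% in library 2, a mean of 6.30% ± 0.557 (SD, n = 2), and the mitochondrial members 8.998% and 11.4%. In hair cell-like cells the nuclear share was 3.79% and 3.05% and the mitochondrial share 9.28% and 11.8%. The mitochondrial shares of these classes overlapped (10.2% ± 1.70 and 10.6% ± 1.81, SD, n = 2). Their nuclear shares did not, and no other of the 12 classes reached cluster 9.

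Non-sensory cochlear epithelium-like cells followed with 3.63% and 3.55% nuclear and 4.96% and 5.69% mitochondrial, and supporting cell-like cells with 3.05% and 3.06% nuclear and 5.24% and 5.56% mitochondrial. Connective tissue fibroblast-like cells stood at 2.26% and 2.27% nuclear and 3.16% and 3.37% mitochondrial. Clusters 2, 4, 8 and 17, which have no cell type name, lay between 1.85% and 2.22% nuclear and between 2.63% and 3.09% mitochondrial, close to the fibroblast-like cells. Of these, clusters 2, 8 and 17 also carried cochlear fibrocyte markers. Macrophage-like cells stood at 2.00% and 1.76% nuclear and 3.55% and 3.10% mitochondrial. Erythroid cell-like cells were lowest on both counts, with 0.947% and 0.486% nuclear and 1.02% and 1.04% mitochondrial. Haemoglobin transcripts took 70.5% and 84.3% of their UMIs, and outside haemoglobin and mt- genes the nuclear share was 3.33% and 3.30%.

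**Figure D1:**
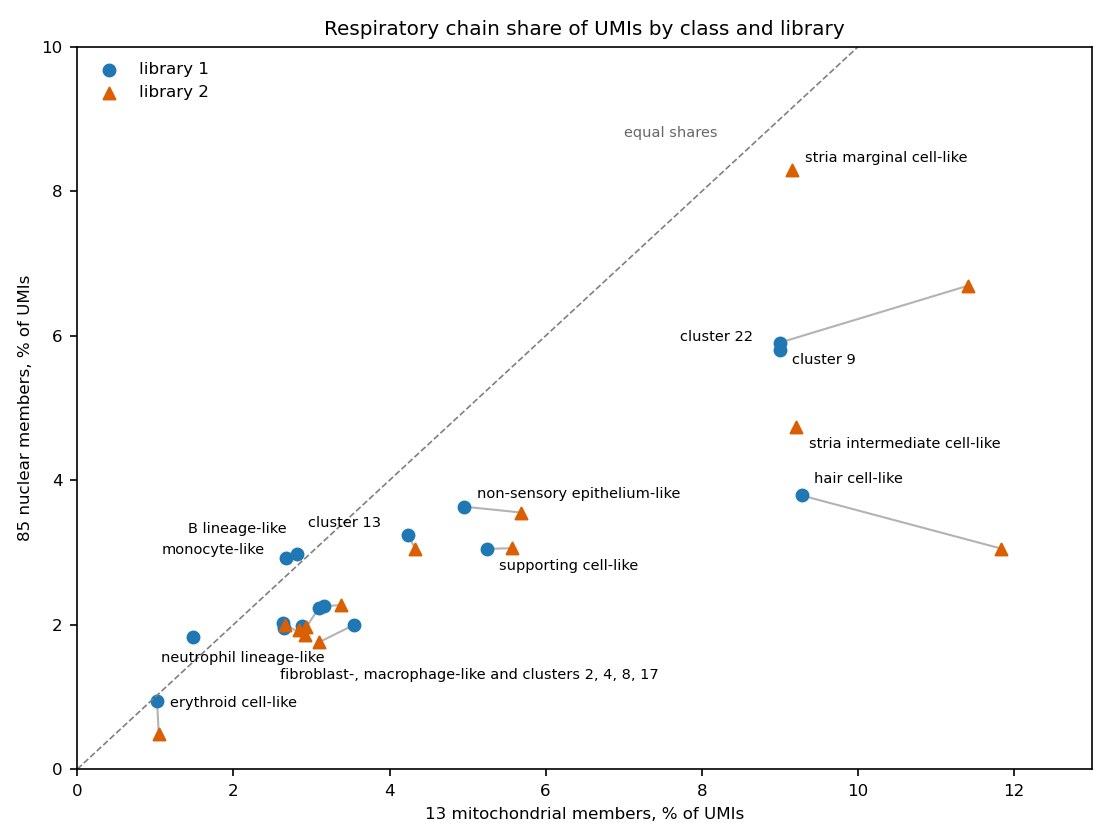
Share of UMIs taken by the 85 nuclear members (vertical axis, percent) against the 13 mitochondrial members (horizontal axis, percent) in each class with at least 3 cells in a library, with a line joining the libraries. Most classes lie below the line of equal shares, cluster 9 and hair cell-like cells lie far to the right, and cluster 9 lies higher, at 5.90% and 6.69% nuclear against 3.79% and 3.05%.

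In summed UMIs only hair cell-like cells stood apart by ratio from every other of the 12 classes. Hair cell-like cells had the lowest ratio, 0.408 in library 1 and 0.258 in library 2 (0.333 ± 0.106, SD, n = 2), which did not overlap with the next class. Macrophage-like (0.563 and 0.567) and supporting cell-like cells (0.582 and 0.550) came next and overlapped with each other. Cluster 9 (0.656 and 0.587) lay just above both in summed UMIs, without overlap. From it up to cluster 2 (0.738 and 0.749) every neighbouring pair in the order of means overlapped. By cell medians, averaged over the libraries, the order turned round: 0.648 in cluster 9, 0.658 in macrophage-like and 0.664 in supporting cell-like cells. Among these 12 classes erythroid cell-like cells had the widest gap between libraries, 0.927 and 0.465. That span covers the values of macrophage-like cells, supporting cell-like cells and cluster 9. The libraries held unlike mixtures of erythroid clusters, given below, whose part in the gap was not tested. As a median over cells the erythroid cell-like ratio was 0.384 against 0.696 from summed UMIs. The hair cell-like ratio depended on the cell filter: with at least 500 genes and at most 10% mt- UMIs it was 1.85 (0.584 and 3.12, with 1 cell left in library 2), and that of cluster 9 was 0.907. Within the hair cell-like class, cluster 15 stood at 3.02 and 3.12.

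Classes found almost in a single library gave further values, without a second library to check them. Stria marginal cell-like cells, which secrete potassium into the endolymph, numbered 0 and 9 and had the highest nuclear share of all classes with at least 3 cells, 8.299% (5104 of 61502 UMIs), with 9.16% mitochondrial. Its cells were uneven: as a median over cells the mitochondrial share was 5.96% (lower quartile 0.593%) and the ratio 1.305, against 0.906 from summed UMIs. More than 10% mt- UMIs were found in 2 of the 9 cells, and 7 further barcodes with at least 3 marginal cell markers lay above the mt- maximum. Stria intermediate cell-like cells, the pigment cells of the stria, had 4.74% nuclear and 9.21% mitochondrial in 19 cells of library 2. Cluster 22, 6 cells of library 1 led by Nefh and Snap25, had 5.81% and 9.01%. Ratios above 1 occurred in blood lineages of library 1, with 1.06 in 69 B lineage-like cells, 1.09 in 38 monocyte-like cells and 1.24 in 25 neutrophil lineage-like cells. The same 3 classes had 0.692, 0.697 and 0.647 in the 1, 2 and 2 cells of library 2.

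By complex, the ratio was highest for complex I in most classes and lowest for complex IV in every class with at least 3 cells in a library. In fibroblast-like cells it was 1.30 and 0.992 for complex I, 0.838 and 0.819 for complex V, 0.641 and 0.685 for complex III and 0.410 and 0.414 for complex IV. Cluster 9 gave 0.854 and 0.707 for complex I and 0.439 and 0.381 for complex IV, and hair cell-like cells 0.631 and 0.335 for complex I and 0.266 and 0.185 for complex IV. The hair cell-like values lay below those of the other two classes in every complex.

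Most members had a smaller spread between classes than the median of all genes fitted. Over the 9 classes with 10 or more cells per library, the SD of the class means of log2(CPM + 1), where CPM is the count scaled by library size, had a median of 0.644 over 82 nuclear members and 0.633 over the 13 mitochondrial members, against 0.985 over all 10754 genes fitted. It was under 1 in 77 and 12 of them, against 5488 of the 10754. The level was highest in cluster 9 for 69 of the 82 nuclear and 11 of the 13 mitochondrial members, against 1620 of all 10754 genes. Of the 10754, only 5367 were held out of the clustering, and the rest include genes that made the classes. The genes compared were not matched for level. The most variable members were the isoform genes Cox8b (SD 2.21), Cox7a1 (2.13), Ndufa4l2 (2.05) and Cox6b2 (1.27) and the sparse mt-Nd6 (1.32), and the complex I subunit Ndufa7 (0.326) was among the least variable. Cox6a2 had 20 and 0 UMIs in all, Cox8c 1 and 0 and Cox7b2 none, and these 3 were not tested.

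Cluster 9 was compared with the mean of the other 8 classes, a comparison added after the data were seen in place of the planned fibrocyte-like class. Of the 82 nuclear members tested, 74 were higher and 2 lower, with a median log2 fold change of 1.28, and all 13 mitochondrial members were higher, with a median of 1.65 (edgeR, quasi-likelihood fit, p adjusted by Benjamini-Hochberg and under 0.05). Among all 5367 held-out genes 19.3% were higher and 8.29% lower, with a median of 0.10. The difference was positive for 78 of the 82 in library 1 and for 80 in library 2. By complex, 36 of 38 members were higher under complex I, 4 of 4 under II, 8 of 8 under III, 12 of 15 under IV and 14 of 17 under V, with medians of 1.17, 1.47, 1.42, 1.56 and 1.46.

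Under complex I, Ndufa4 stood at 1982 and 2159 CPM in cluster 9 against means of 532 and 429 in the other classes, a log2 fold change of 2.20 ± 0.17 (SE, edgeR adjusted p = 6.4e-27). Both libraries of cluster 9 lay far above the mean of the others. The fitted value averages differences taken on the log scale and so need not equal the log of the ratio of the mean CPM. The accessory subunit Ndufb6 rose by 1.90 (274 and 381 against 107 and 72.1 CPM). Complex II, which also serves the TCA cycle and has no mitochondrial gene, rose whole. Its iron-sulphur subunit Sdhb stood at 440 and 466 CPM against 143 and 107 (1.90 ± 0.16), the membrane anchor Sdhc at 221 and 261 against 86.2 and 65.9 (1.72), Sdha at 269 and 269 against 129 and 99.4 (1.22) and the other anchor, Sdhd, at 146 and 150 against 67.8 and 56.6 (1.21). In complex III the small subunits Uqcr10 (2.07), Uqcrq (1.90) and Uqcrb (1.78) had the largest changes. In complex V these were Atp5g3, a subunit c gene (607 and 1265 against 183 and 229 CPM, 2.20), the catalytic beta subunit Atp5b (1.85) and the coupling factor Atp5j (1.79).

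Complex IV held both the largest rises and a fall. Cox7a1 (ENSMUSG00000074218, GRCm38 chromosome 7, 30184144 to 30186078, plus strand) stood at 303 and 572 CPM in cluster 9 against 9.51 and 28.5 in the other classes. Both libraries of cluster 9 were more than an order of magnitude above the mean of the others, with a log2 fold change of 5.25 ± 0.18 (edgeR adjusted p = 1.4e-72). Cox8b (ENSMUSG00000025488, chromosome 7, 140898945 to 140900446, minus strand) stood at 298 and 212 CPM against 3.60 and 29.1, a log2 fold change of 5.53 ± 0.63 (adjusted p = 1.3e-04, same edgeR test). Cox5a, which with Cox5b frames the catalytic core, followed at 575 and 703 against 181 and 124 CPM (2.33). The general forms Cox7b (1.91), Cox7a2 (1.88), Cox6a1 (1.69), Cox8a (1.42), Cox6b1 (1.16) and Cox4i1 (1.06) rose as well. The assembly factor Cox7a2l fell, with 345 and 320 against 688 and 550 CPM (-0.83 ± 0.23, adjusted p = 1.8e-03, edgeR). The other nuclear member called lower was Ndufa4l2, with 1 UMI in each library of cluster 9. The 6 nuclear members that were not called were Ndufa7 (0.42), Cox4i2 (0.21), Cox6b2 (0.18), Atp5g2 (0.45, adjusted p = 0.061, edgeR), Atp5s (0.03) and Atp5sl (0.52).

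The mitochondrial members rose within a narrower range. The lowest was mt-Atp8 at 74.4 and 284 CPM against 70.5 and 127, a log2 fold change of 0.83 ± 0.20, and its difference was 0.11 in library 1 and 1.37 in library 2. The highest was mt-Nd6 (2.06 ± 0.53), on only 18 and 11 UMIs. Both rest on few UMIs in library 1 (78 for mt-Atp8). The abundant mt-Co1, the catalytic subunit of complex IV, stood at 12077 and 17901 CPM against 5122 and 4718 (1.67 ± 0.21), and mt-Nd1 of complex I at 8065 and 10766 against 2687 and 3372 (1.72).

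Other mitochondrial gene lists moved unequally in cluster 9, where 19.3% of all held-out genes were higher and 8.29% lower. All 19 tested genes of the TCA cycle and pyruvate dehydrogenase were higher (median 1.47), among them Idh3a, a subunit of isocitrate dehydrogenase (143 and 208 against 37.6 and 25.7 CPM, 2.72). Of the list of cytochrome c and quinone carriers, which also holds quinone synthesis genes, 7 of 12 were higher. Cytochrome c itself (Cycs) stood at 492 and 691 against 112 and 101 CPM (2.69 ± 0.16), and Cyc1 of complex III at 1.62. Of the genes for ATP export, phosphate import and uncoupling 9 of 12 were higher and 2 lower (median 1.10), with the ADP/ATP carriers Slc25a4 (1.78) and Slc25a5 (1.72) higher and the uncoupling protein Ucp2 lower (7.63 and 2.12 against 253 and 495 CPM, -2.99). The mean CPM of Ucp2 in the other classes includes erythroid and macrophage-like cells, where it was called higher (below). Assembly factors had 17 of 42 higher (median 0.65), the mitochondrial ribosome 18 of 75 higher and 1 lower (median 0.29), and the upkeep of mitochondrial DNA and RNA 5 of 19 higher (median 0.16). The ribosome and upkeep shares lay near that of all held-out genes. Tfam, which packages mitochondrial DNA, was at 15.3 and 29.7 against 24.8 and 31.3 CPM (-0.39, adjusted p = 0.42, edgeR). Mrps6, a small ribosomal subunit gene, and Chchd10, a protein of the intermembrane space, had large changes of 4.27 (834 and 958 against 79.1 and 83.7 CPM) and 3.80 (2182 and 2307 against 249 and 208).

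Among 7 regulators of mitochondrial biogenesis 3 were higher and 1 lower, where 19.3% of all held-out genes were higher and 8.29% lower. The coactivator Ppargc1a stood at 128 and 146 CPM in cluster 9 against 3.55 and 2.25 in the other classes (7.70 ± 0.35, edgeR adjusted p = 6.0e-59), and its partner Esrra, a nuclear receptor, at 52.5 and 65.7 against 14.2 and 11.7 (2.18 ± 0.27). In the clearance and fission list 4 of 10 were higher, with the fusion genes Mfn2 (2.24) and Mfn1 (2.12) in front, while the mitophagy receptor Bnip3l was not called (251 and 189 against 486 and 529 CPM). The mean CPM of Bnip3l in the other classes includes erythroid cell-like cells, where it was called higher (below).

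**Figure D2:**
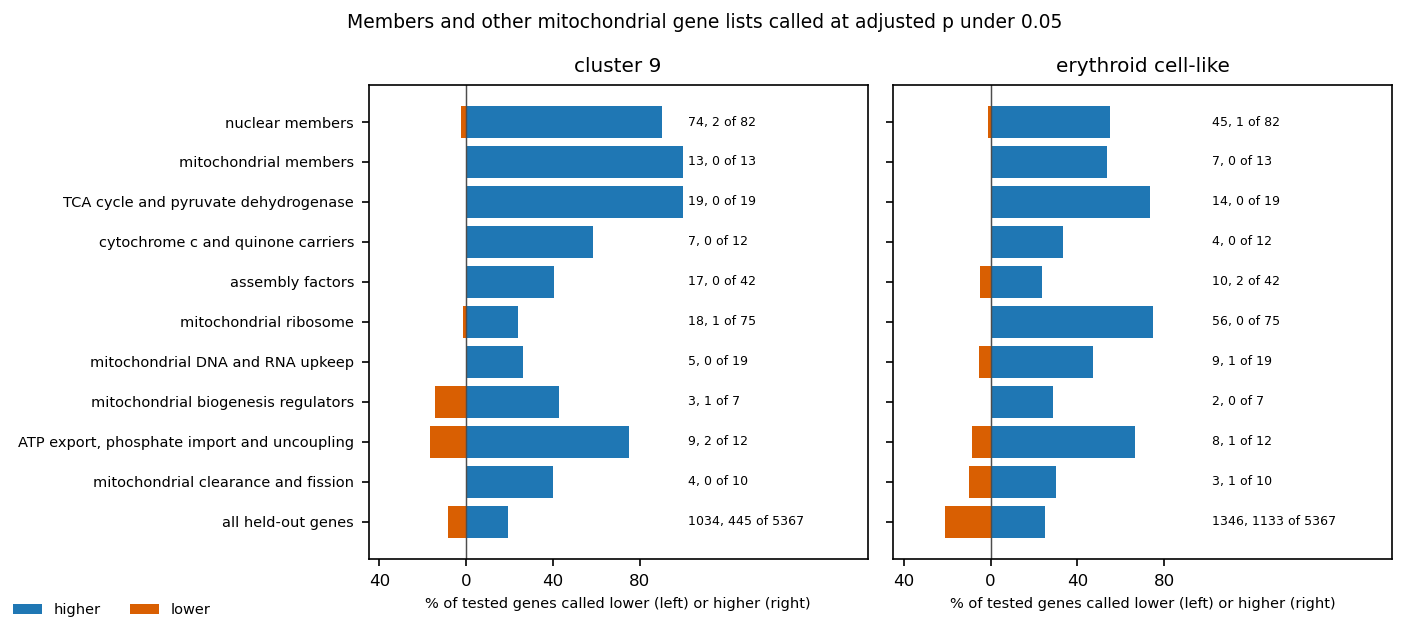
Percent of tested genes called higher (right) or lower (left) by edgeR at an adjusted p under 0.05, for the members, the other mitochondrial gene lists and all 5367 held-out genes, in cluster 9 and in erythroid cell-like cells. In cluster 9 the members and the TCA cycle stand far above the mitochondrial ribosome (18 of 75), while in erythroid cell-like cells the mitochondrial ribosome (56 of 75) stands above the nuclear members (45 of 82).

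Cells of cluster 9 differed among themselves in both shares. In library 1 the nuclear share ran from 2.34% to 11.8% with a median of 5.73%, and in library 2 from 2.40% to 11.8% with a median of 7.71%. Of its cells, 47 of 53 in library 1 and 20 of 24 in library 2 exceeded the highest fibroblast-like cell of the same library (3.18% and 3.79%). The mitochondrial share ran from 3.07% to 15.3% and from 0.460% to 18.4%. The Spearman correlation of the shares was 0.610 over 53 cells and 0.229 over 24, which share the depth of each cell. In library 2, 2 cells had 0.460% and 1.22% mt- UMIs beside nuclear shares of 11.8%, at 7974 and 8040 UMIs. They held 123 UMIs of the cochlear fibrocyte markers and 0 of the stria marginal cell markers. Their part in the lower correlation was not tested.

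Cells with many mt- UMIs were numerous in cluster 9: 18 of 53 and 16 of 24 had more than 10%. With at least 500 genes and at most 10% mt- UMIs, in a fit with at least 3 cells in each library added after the data were seen, 64 of its nuclear members were higher and 8 of the 13 mitochondrial members. The same fit without the stricter filter gave 72 and 13. Whether cell quality plays a part was not tested. The summed CPM of the Schwann cell or glia markers in cluster 9 was 5005 and 1869 (6 and 4 of 7 markers with UMIs), that of the fibrocyte markers 7385 and 6731 (7 and 6 of 7). The brown fat list, as Cox7a1 and Cox8b are known from that tissue, gave 4.85 and 0 CPM (2 and 0 of 5 markers with UMIs) and the skeletal muscle list 3.63 and 2.51 (1 and 1 of 6).

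**Figure D3:**
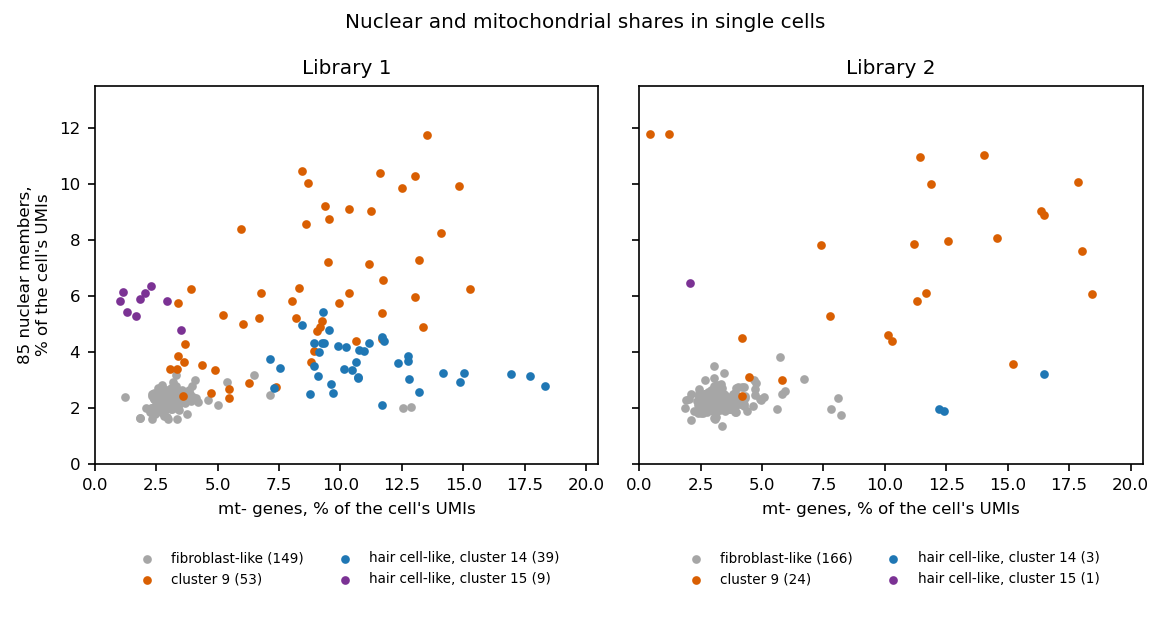
Nuclear member share against mt- share of UMIs (both percent) for single cells of fibroblast-like, cluster 9 and hair cell-like cells, 1 panel for each library, with cell numbers in the legend. Fibroblast-like cells form a compact group, cluster 9 spreads upward to 11.8% nuclear, and cluster 15 of the hair cell-like cells stands apart at low mitochondrial and high nuclear shares.

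Against connective tissue fibroblast-like cells alone, 74 of 82 nuclear members were again higher in cluster 9 and 2 lower (median 1.33), and 13 of 13 mitochondrial members were higher (median 1.62), where 14.0% of held-out genes were higher and 13.2% lower (median -0.01). Both comparisons use the same cluster 9 libraries. In the fit of classes with 3 or more cells the counts were 69 nuclear and 13 mitochondrial members higher, and 59 and 4 when that fit took only cells of 500 or more genes and no more than 10% mt- UMIs. The members called lower were Cox7a2l (-0.89 ± 0.28) and Ndufa4l2, and Ndufa4, its paralog, was higher by 2.09 ± 0.28.

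Ndufa4l2 (ENSMUSG00000040280, chromosome 10, 127514967 to 127517154, plus strand), known as a hypoxia-induced relative of Ndufa4, was the member that marked the fibroblast-like side. It stood at 82.5 and 66.3 CPM in fibroblast-like cells against 15.6 and 11.2 in the other classes, with both libraries above, a log2 fold change of 3.38 ± 0.26 (edgeR adjusted p = 6.5e-28). Against fibroblast-like cells it was lower in cluster 9 by -5.75 ± 0.57. It made up 14.2% of the UMIs of Ndufa4 and Ndufa4l2 in fibroblast-like cells of library 1 (108 of 758, exact binomial 95% interval 11.8% to 16.9%) and 12.1% in library 2 (75 of 620, 9.63% to 14.9%). Clusters 2 (9.27% and 6.998%), 17 (8.90% and 6.35%) and 8 (5.67% and 6.41%) came next, and cluster 9 had 0.0481% and 0.0980%. Hair cell-like cells of library 1 had 0 of 706 UMIs, which allows up to 0.425%.

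The rest of the chain set fibroblast-like cells little apart from the mean of the other classes. Of 82 nuclear members 1 was higher (Ndufa4l2) and 3 lower (median -0.18), where 13.8% of held-out genes were higher and 3.47% lower (median 0.10), and no mitochondrial member passed (edgeR, median -0.26). The 3 were Cox5a (93.9 and 94.6 against 242 and 200 CPM, -0.79), the complex I core subunit Ndufs1 (19.1 and 17.7 against 37.2 and 28.9, -0.76) and Uqcrq (163 and 161 against 323 and 291, -0.64). Assembly factors had 1 of 42 higher and 2 lower and the mitochondrial ribosome 0 and 3 of 75.

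The tissue-restricted isoforms of complex IV each had their own cell distribution. Cox7a1 made up 19.1% of the UMIs of Cox7a1 and Cox7a2 in cluster 9 of library 1 (318 of 1668, interval 17.2% to 21.03%) and 28.0% in library 2 (270 of 966, 25.1% to 30.9%), and was seen in 40 of 53 and 22 of 24 cells. In stria marginal cell-like cells it made up 34.4% (67 of 195, 27.7% to 41.5%), in 8 of 9 cells. In fibroblast-like cells it made up 3.10% and 5.32%, and in non-sensory epithelium-like cells 3.46% and 12.2%. The intervals cover counting error only, and the marginal cell-like value rests on 9 cells of library 2.

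Cox8b followed Cox7a1 in part only. It made up 12.4% of the UMIs of Cox8a, Cox8b and Cox8c in cluster 9 of library 1 (312 of 2513) and 8.16% in library 2 (100 of 1226), seen in 30 of 53 and 15 of 24 cells. The highest share was 42.3% in stria intermediate cell-like cells of library 2 (182 of 430, 37.6% to 47.2%), in 19 of 19 cells, followed by 33.2% in stria marginal cell-like cells (88 of 265) and 23.9% in cluster 22 (146 of 612, in 6 of 6 cells). Cluster 22 had only 1.39% Cox7a1 (5 of 361) and stria intermediate cell-like cells 8.94% (11 of 123), so the isoforms did not go together there. Outside these classes Cox8b was low in library 1 and higher in several classes of library 2, with 0.190% and 2.42% in fibroblast-like cells and 0.196% and 9.71% in erythroid cell-like cells (3 of 1528 and 10 of 103 UMIs). Library 2 also held 19 stria intermediate and 9 stria marginal cell-like cells, against 2 and 0 in library 1, and the part of free RNA in these low shares was not tested.

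Cox6b2 (ENSMUSG00000051811, chromosome 7, 4751792 to 4753094, minus strand) was highest in erythroid cell-like cells. It made up 24.0% of the UMIs of Cox6b1 and Cox6b2 in erythroid cell-like cells of library 1 (333 of 1385, 21.8% to 26.4%) and 41.4% in library 2 (29 of 70, 29.8% to 53.8%), and 18.3% in neutrophil lineage-like cells (28 of 153). Fibroblast-like cells had intermediate shares, 9.36% and 7.53%. Epithelial and hair cell-like classes were low, with 0.746% in hair cell-like cells of library 1, 0.893% and 1.22% in non-sensory epithelium-like cells and 1.09% in supporting cell-like cells of library 1. In the fits Cox6b2 was higher in erythroid cell-like cells (250 and 306 against 34.8 and 43.1 CPM, 2.94 ± 0.19, edgeR adjusted p = 1.9e-36). It was lower in non-sensory epithelium-like cells (-2.81 ± 0.40), hair cell-like cells (-2.64 ± 0.57) and supporting cell-like cells (-2.26 ± 0.48).

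**Figure D4:**
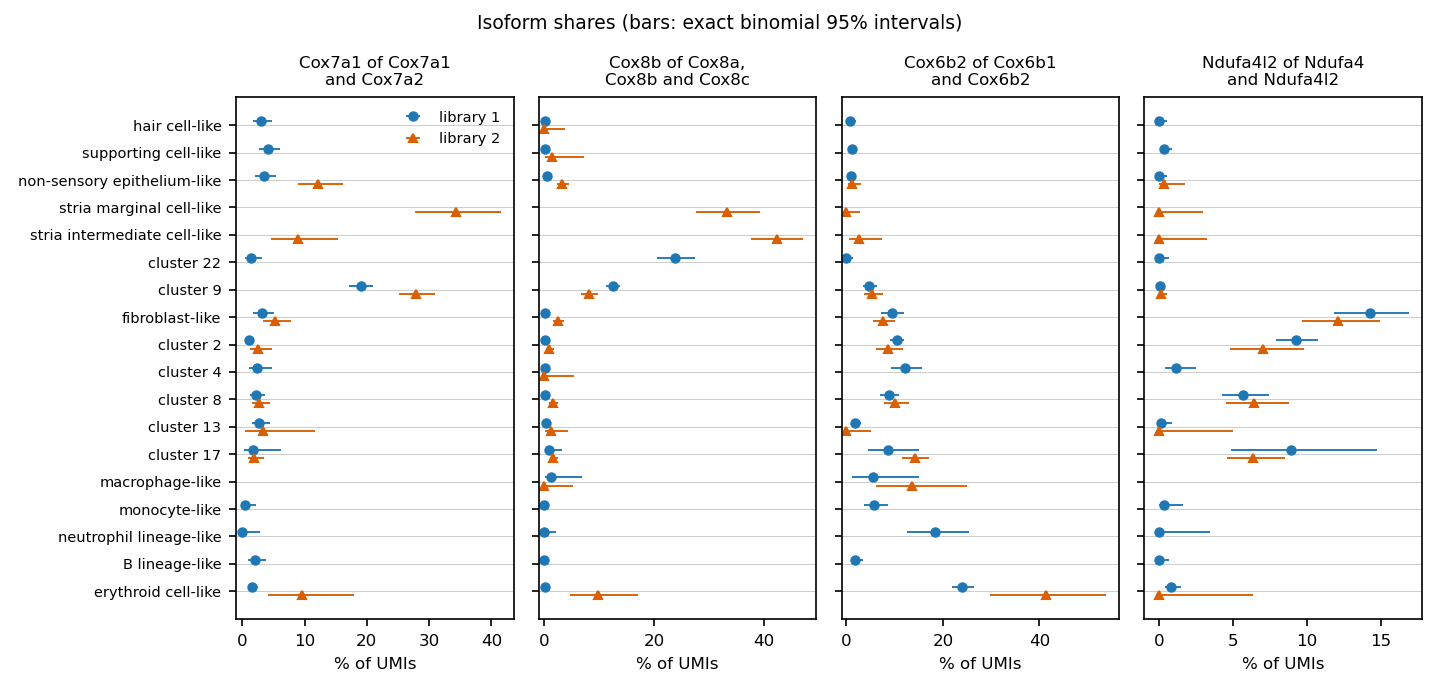
Share of UMIs (percent) taken by Cox7a1, Cox8b, Cox6b2 and Ndufa4l2 within their isoform sets, for each class and library with at least 50 UMIs of the set; bars are exact binomial 95% intervals, which cover counting error only. Cox7a1 is high in cluster 9 and stria marginal cell-like cells, Cox8b in stria intermediate (42.3%) and marginal (33.2%) cell-like cells and in cluster 22 (23.9%), Cox6b2 in erythroid cell-like cells and Ndufa4l2 in fibroblast-like cells (14.2% and 12.1%).

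Cox4i2 (ENSMUSG00000009876, chromosome 2, 152754173 to 152765037, plus strand), a lung and hypoxia form of Cox4i1, was a minor form everywhere. Its share of the pair was 5.67% in cluster 13 of library 1 (70 of 1234, in 29 of 43 cells) and 7.27% in library 2 (8 of 110, in 3 of 6 cells), a cluster led by Fabp7 and Fzd9 with supporting cell and epithelial markers. Supporting cell-like cells followed with 1.20% in library 1 (21 of 1757). Subunit c of ATP synthase, which is one protein made from 3 genes, also shifted. Atp5g2 made up 41.1% and 41.3% of the trio in fibroblast-like cells, 58.5% and 55.2% in macrophage-like cells, 24.1% and 16.9% in cluster 9 and 9.76% in cluster 22. Atp5g3 took a larger part in cluster 9 (38.0% and 54.1%) than in fibroblast-like cells (26.3% and 30.5%), and Atp5g1 made up 51.6% in cluster 22.

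Hair cell-like cells were compared in a second fit of 12 classes that admits classes with at least 3 cells in a library, and library 2 held 4 of them with 36019 UMIs. All 13 mitochondrial members were higher (median log2 fold change 1.09) while 11 of 82 nuclear members were higher and 4 lower (median 0.01, edgeR adjusted p under 0.05). Of all 5766 held-out genes 21.4% were higher and 13.3% lower (median -0.03), so the nuclear share of calls was below that of all genes. The nuclear median was 0.22 in library 1 and -0.81 in library 2, where the median over all held-out genes was -0.87. The mitochondrial members ran from mt-Co1 (12465 and 7589 against 6744 and 6428 CPM, 0.71 ± 0.25) to mt-Nd3 of complex I (1102 and 1233 against 320 and 437 CPM, 1.78 ± 0.22). For both, the libraries of hair cell-like cells lay above the mean of the other classes.

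Among nuclear members called higher with the same sign in both libraries, Ndufv3, an accessory subunit of the NADH-binding module, rose most. It stood at 555 and 277 against 180 and 167 CPM (1.40 ± 0.23, adjusted p = 9.1e-09, edgeR). The complex I subunit Ndufa1 (0.96), Uqcrq of complex III (0.95), Cox6a1 (0.78) and Cox8a (0.71) of complex IV and Atp5k of complex V (0.79) were also higher. Cox6a1 stood at 1344 and 374 against 631 and 523 CPM and thus lay below the mean in library 2. The members called lower were Cox6b2, Cox7a2l (399 and 138 against 706 and 573 CPM, -1.08), Ndufc2 (181 and 27.7 against 255 and 212, -0.77) and Ndufa4l2, with 0 UMIs in both libraries. No complex II member was called. Of the lists, assembly factors had 10 of 43 higher, led by Coa3 (583 and 222 against 138 and 110 CPM, 1.86), the ATP export list 5 of 13 higher and 1 lower, led by the mitochondrial creatine kinase Ckmt1 (5.19, on 27 and 3 UMIs), and the mitochondrial ribosome 7 of 76 higher and 3 lower, with Mrps6 at 2.34. Among all held-out genes 21.4% were higher and 13.3% lower. The share of assembly factors higher lay near that of all genes, and the ribosome share lay below it. The fission gene Dnm1l was higher by 1.80.

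The hair cell-like class held clusters whose chains were opposite. Cluster 14, with Ocm and Slc17a8 among its leading genes, held 39 and 3 cells, and cluster 15, led by Calb2, held 9 and 1. In library 1 the mt- share ran from 7.12% to 18.3% in cluster 14 (median 10.6%) and from 1.01% to 3.51% in cluster 15 (median 1.86%), without overlap. The nuclear share ran from 2.1003% to 5.43% in cluster 14 (median 3.49%) and from 4.77% to 6.36% in cluster 15 (median 5.81%). In library 2 the 3 cells of cluster 14 had 12.2% to 16.5% mt- and 1.88% to 3.21% nuclear, and the cell of cluster 15 had 2.07% and 6.45%. The ratio was therefore 0.333 and 0.172 in cluster 14 and 3.02 and 3.12 in cluster 15, the highest of any cluster. Median UMIs in library 1 were 14506 in cluster 14 and 11007 in cluster 15, with 3997 and 2995 genes. Without cluster 15, an alternative added after the data were seen, 3 nuclear members were higher and 10 lower, beside 20.4% of held-out genes higher and 14.2% lower.

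Non-sensory cochlear epithelium-like cells had moderate rises of both nuclear and mitochondrial members. Of 82 nuclear members 32 were higher and 2 lower (median 0.39), and 5 of 13 mitochondrial members were higher (median 0.47), where 20.0% of held-out genes were higher and 10.1% lower (median 0.05, edgeR). The mitochondrial count was 2 with the DESeq2 Wald test or without the low-count filter, 1 without the replicate block and 3 at resolution 0.5, where the nuclear count was 11. With at least 500 genes and at most 10% mt- UMIs the counts were 49 nuclear and 6 mitochondrial. By complex the numbers higher were 16 of 38 under I, 1 of 4 under II (Sdhc, 0.60), 3 of 8 under III, 8 of 15 under IV and 4 of 17 under V. Cox8a stood at 2151 and 2223 against 910 and 950 CPM (1.39 ± 0.19, adjusted p = 3.7e-11, edgeR), Ndufa1 at 365 and 289 against 158 and 176 (1.24), Ndufs6 at 380 and 348 against 172 and 164 (1.20) and Atp5e of complex V at 777 and 1196 against 494 and 631 (0.88). Each lay above the mean of the others in both libraries. Cox7a1 was called higher too (1.78), with log differences of 0.78 and 2.30, although its 22.7 and 92.5 CPM stood against mean CPM of 44.6 and 88.5. The members called lower were Cox6b2 (6.66 and 9.03 against 65.2 and 80.1 CPM) and Ndufa4l2 (0 and 1 UMIs). Assembly factors had 10 of 42 higher, led by the copper chaperone Cox17 (275 and 359 against 135 and 179 CPM, 1.22), the mitochondrial ribosome 16 of 75 higher and 1 lower, and the ATP export list 6 of 12 higher. The ratio from summed UMIs was 1.02 and 0.520 in its cluster 10 and 0.471 and 0.743 in its cluster 20, in libraries 1 and 2. As a median over cells it was 0.934 and 0.551 in cluster 10 and 0.786 and 0.739 in cluster 20, where 2 of the 17 cells of library 1 had more than 10% mt- UMIs.

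Supporting cell-like cells of the organ of Corti, with 82 and 7 cells, had 3 of 82 nuclear members higher and 2 lower (median -0.02) in the second fit, where 16.0% of held-out genes were higher and 6.38% lower (median 0.03). None of the 13 mitochondrial members passed (edgeR, median 0.15). The members higher were Uqcrq (681 and 529 against 396 and 316 CPM, 1.02 ± 0.25), the complex I core subunit Ndufs8 (207 and 172 against 124 and 97.7, 0.84) and Cox4i2 (1.76, on 21 and 1 UMIs), and those lower Cox6b2 and Ndufs1 (-1.07, on 21 and 0 UMIs). In the clearance and fission list 4 of 10 were higher, among them the mitophagy receptor Fundc1 (1.31).

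**Figure D5:**
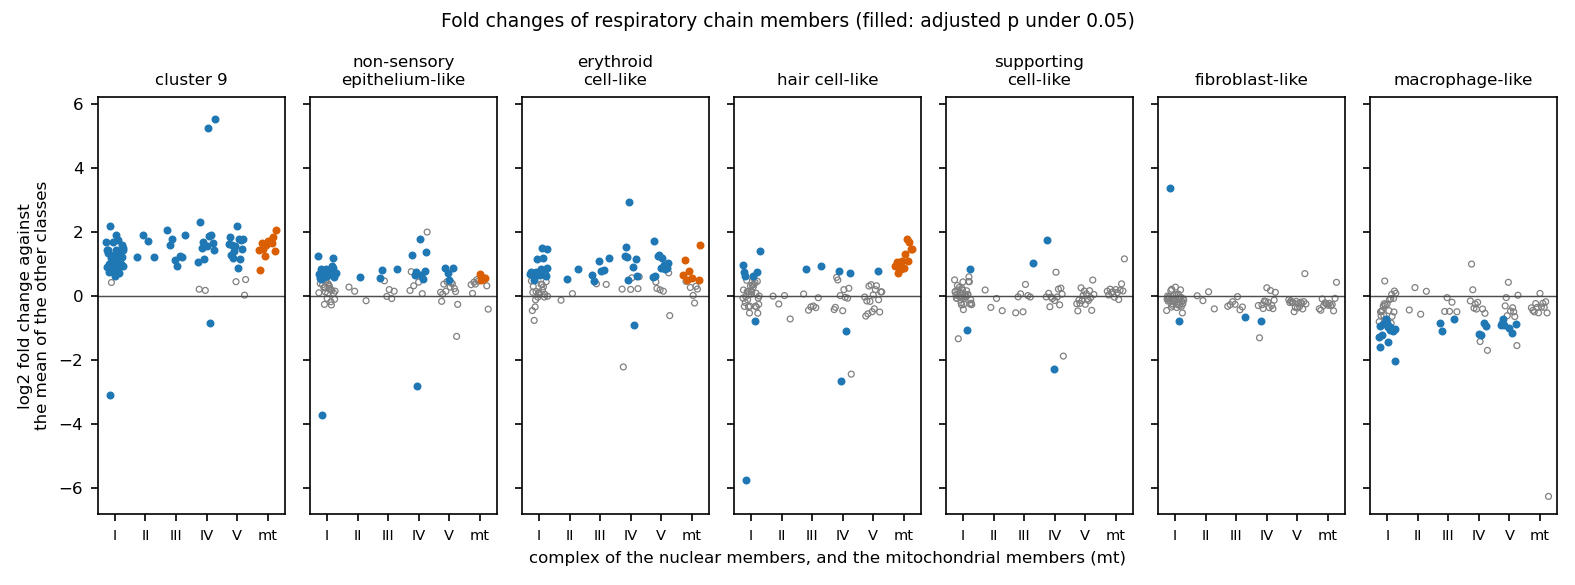
Log2 fold change of each tested member against the mean of the other classes, by complex for nuclear members and together for the mitochondrial members (mt), with filled points at an edgeR adjusted p under 0.05. Cluster 9 is the class with nearly all points raised (74 nuclear and 13 mitochondrial members higher), hair cell-like cells have only the mitochondrial group raised, and the points below -5 belong to genes with 0 UMIs in the class.

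Erythroid cell-like cells had the lowest share of UMIs for the chain, and yet 45 of 82 nuclear members were called higher and 1 lower (median 0.61), with 7 of 13 mitochondrial members higher (median 0.50). The mitochondrial count was 1 with at least 500 genes and at most 10% mt- UMIs, 3 without the replicate block and 3 at resolution 0.5. Of the held-out genes 25.1% were higher and 21.1% lower (median -0.08, edgeR). The TMM factors of this class were 0.277 and 0.190, which raise its CPM, so the fold changes are not on the scale of the share of all UMIs. The beta subunit Atp5b stood at 1595 and 917 against 463 and 440 CPM (1.73 ± 0.19), Cox5b at 811 and 632 against 279 and 295 (1.52) and Ndufb9 at 569 and 411 against 197 and 199 (1.49). The nuclear differences were positive for 71 of 82 members in library 1 and for 50 in library 2, where the class held 39 cells and the median over all held-out genes was -0.81. Sdhd (139 and 21.1 against 68.7 and 72.7 CPM, 0.84) and Sdhb (236 and 116 against 168 and 151, 0.54) were called on library 1 and lay below the others in library 2. Cox7a2l was the member called lower (-0.91 ± 0.25).

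The mitochondrial ribosome list was the widest in this class, with 56 of 75 higher and 0 lower (median 0.81), led by Mrps22 (2.62, on 62 and 2 UMIs). In library 1 its differences were positive for 73 of 75 genes, and in library 2 for 31 (median -0.10). The TCA cycle had 14 of 19 higher, DNA and RNA upkeep 9 of 19 higher and 1 lower, assembly factors 10 of 42 higher and 2 lower, and ATP export 8 of 12 higher and 1 lower. Among all held-out genes 25.1% were higher and 21.1% lower, so the share of assembly factors higher lay near that of all genes. Ucp2 (1486 and 3087 against 68.4 and 109 CPM, 6.55 ± 0.23) and Atpif1, the inhibitor of the ATP synthase (2790 and 2255 against 332 and 316, 2.98), were far above the other classes, and the carrier Slc25a5 was higher (1.80) while Slc25a4 was lower (-2.05). Bnip3l, the receptor that clears mitochondria from maturing red cells, stood at 2054 and 2834 against 260 and 198 CPM (3.47 ± 0.17, edgeR adjusted p = 1.4e-55). The clusters merged in this class differed. Cluster 6, led by Klf1 and with Rrm2, Birc5 and Ccna2 of the cell cycle among its leading genes, held 27.4% and 47.1% haemoglobin and had 2.57% and 1.86% nuclear members and ratios of 1.40 and 1.14. Clusters 0 and 1 of library 1, with 89.4% and 81.4% haemoglobin, had 0.271% and 0.434% nuclear members and ratios of 0.403 and 0.549. In library 1 cluster 6, with 83 of the 414 cells, gave 34924 of the 45785 nuclear member UMIs of the class. Cluster 21 held 2 and 27 cells. In library 2 it had 92.6% haemoglobin, 0.201% nuclear members and a ratio of 0.227.

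Macrophage-like cells were the class with falls. Of 82 nuclear members 0 were higher and 30 lower (median -0.58), and no mitochondrial member passed (edgeR, median -0.35), where 9.89% of held-out genes were higher and 10.2% lower. The median over all held-out genes was -0.44 in this contrast, close to the median of the nuclear members. The sums held 123516 and 103968 UMIs, and with DESeq2 size factors 16 members were lower. Ndufv1, the NADH-binding subunit of complex I, had 19.2 and 15.5 against 86.4 and 70.1 CPM, on 3 and 2 UMIs (-2.01 ± 0.54), and Ndufa11 57.6 and 101 against 260 and 237 (-1.57). Cox7a2 (230 and 179 against 541 and 569 CPM, -1.21), Cox6c (-1.18), Atp5j (-1.16) and Uqcr11 (-1.09) lay below the mean of the others in both libraries. Assembly factors had 3 of 42 lower and none higher, the TCA cycle 3 of 19 lower, and Ucp2 was higher (326 and 692 against 213 and 409 CPM, 4.14).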

How the data were processed

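Droplet single-cell RNA sequencing of whole cochlea gave 2 libraries, analysed from the raw UMI counts per gene and barcode that the authors deposited. Per the submitters' processing notes, the counts were made with Cell Ranger 2.1.0 on mm10, and further settings are not given in the sources used here. The members and all gene lists were chosen with earlier results of these data known.

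Barcodes needed at least 300 genes and at most 20% mt- UMIs, and Scrublet doublets (2 and 4) were removed (scanpy 1.11.5). Leiden clustering (resolution 1.0, 30 components, 15 neighbours, seed 0) used the markers and the genes with an odd checksum of their identifier, never a member, an mt- gene or a listed pathway gene. All others were held out and tested. A cluster was named with at least 3 markers and 40% of a list, 20 percentage points ahead of the next list. The planned fibrocyte-like class was not found, so cluster 9 took its place. UMIs were summed per library and class and tested with edgeR 4.0.16 (R 4.3.3): quasi-likelihood, TMM normalisation, genes kept by filterByExpr at a minimum count of 10, library as replicate block, Benjamini-Hochberg adjustment over all held-out genes tested. The libraries are the blocks because every class of a library shares its preparation. The first fit held 9 classes with 10 or more cells per library, the second 12 classes with 3 or more. Sums held 36019 to 4836602 UMIs, which limits rare genes most in hair cell-like cells of library 2. Exact binomial 95% intervals cover counting error only, and a count of 0 was given the limit of 3 counts. The fits were tested on simulated data.

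Named in the text were the isoform genes, the highest and lowest mitochondrial member, all complex II members, the largest called changes with the same sign in both libraries in each complex (up to 3) and list (up to 2), and members called against the majority. Other genes were picked after their values were seen. Alternatives were DESeq2 1.42.0 and its size factors, other library sizes, no low-count filter, no block, stricter cell filters, other resolutions and leaving out each library. Values of some single genes are not reported here.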

Additional observations from a re-analysis of the deposited data

Results flagged for a closer look

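Barcodes above the maximum of 20% mt- UMIs were left out of every comparison, and in library 2 they held UMIs of the stria marginal cell markers. The 16 such barcodes of library 2, with 132338 UMIs in all, held 541 of these UMIs, and 7 of them had at least 3 of the markers. The 4 such barcodes of library 1 held 0 of 28407 UMIs, and no stria marginal cell-like cells were kept in that library, so the libraries cannot be compared for this count. In library 2 the class was also found within the limit, with 9 cells kept, and its 30 barcodes at 10% to 20% mt- held 374 UMIs of the same markers. The mt- share of the barcodes above the maximum ran from 20.2% to 65.8%, and the nuclear members took 6.16% of their UMIs. No control samples exist for this count.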

How the results depend on the processing

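In cluster 9 the numbers of nuclear members higher stayed within 1.5 times of 74 under every alternative, while its mitochondrial count was 8, and 4 against fibroblast-like cells, with 500 genes and 10% mt- in the fit of classes with 3 or more cells; the same fit without the stricter filter gave 13 and 13 (both added after seeing the data). Under the stricter filter, mitochondrial members higher in erythroid cell-like cells went from 7 to 1, nuclear members lower in macrophage-like cells from 30 to 15, nuclear members higher in non-sensory epithelium-like cells from 32 to 49 and in supporting cell-like cells from 3 to 5, and nuclear members lower in fibroblast-like cells from 3 to 0. The ratio became 0.783 in non-sensory epithelium-like cells, 0.907 in cluster 9 and 1.85 in hair cell-like cells, where library 2 kept 1 cell. Without an mt- maximum it was 0.562 in cluster 9. As a median over cells it was 0.384 in erythroid, 0.658 in macrophage-like, 0.756 in non-sensory and 0.664 in supporting cell-like cells, and 0.648 in cluster 9. With DESeq2 size factors 16 nuclear members were lower in macrophage-like cells, 7 in fibroblast-like cells, and 21 higher in hair cell-like cells. The DESeq2 Wald test gave 14, 12 and 21, and 2 mitochondrial members higher in non-sensory epithelium-like cells, as did no low-count filter (2). Without the replicate block 3 mitochondrial members were higher in erythroid and 1 in non-sensory epithelium-like cells, and 1 nuclear member was lower in fibroblast-like cells. At resolution 0.5 mitochondrial members higher were 3 in erythroid and 3 in non-sensory epithelium-like cells, and nuclear members higher 11 in non-sensory and 4 in hair cell-like cells. Without cluster 15, 3 nuclear members were higher in hair cell-like cells. The cause of these changes was not tested.

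With a library left out there is no test of the counts, and the ratio ran from 0.587 to 0.656 in cluster 9, 0.673 to 0.713 in fibroblast-like, 0.465 to 0.927 in erythroid, 0.258 to 0.408 in hair cell-like (0.253 with both libraries but without cluster 15), 0.563 to 0.567 in macrophage-like, 0.625 to 0.733 in non-sensory and 0.550 to 0.582 in supporting cell-like cells. The direction differed between the libraries (value without replicate 1, then without replicate 2) in erythroid cell-like cells for Cox6b1 (-0.0371, 0.807), Sdhb (-0.0923, 0.672), Sdhd (-1.60, 1.12) and Tfam (-0.468, 0.971), in hair cell-like cells for Cox6a1 (-0.264, 1.27) and Cycs (-0.855, 1.295), and in supporting cell-like cells for Ppargc1a (-0.978, 1.34). Over all named genes and settings with a test, 3668 values kept their side of the threshold, 243 lost the call and 32 gained it. Direction was compared only where the main run or the alternative gave a call, and no such value was reversed. The stricter filter could not be fitted for hair cell-like cells, nor for cluster 9 among classes with 10 or more cells. Depth limits hair and supporting cell-like values of library 2 most.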
